A study of Mus musculus with 12 samples.

Results

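Lung RNA from mice that received bacterial endotoxin on top of the tobacco carcinogen NNK was compared with lung RNA from mice that received NNK alone. The comparison used 6 of the study's 12 arrays, 3 labelled LPS/NNK (arrays 2, 3 and 6) and 3 labelled NNK (arrays 2, 3 and 5). They were chosen by the group in their labels and by no measured value. The arrays of PBS lung and of lung given endotoxin alone entered the estimate of the spread between arrays. They also entered the filter on dim probes and the choice of the probe for each gene, but not the difference itself. All probes that were not controls were taken, 41174 in all, and the 21855 genes or unnamed transcripts that passed a filter on dim probes are called items here; 13647 of them had a gene symbol.

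Both groups were female FVB/N mice (FVB/NJ in the strain field) aged 7 weeks at the start. NNK is a nitrosamine formed from nicotine that gives lung tumours in mice. It was injected into the peritoneum at 3 mg per mouse during the first 4 weeks in both groups, on a schedule that the labels call biweekly in one field and semi-weekly in another. LPS, the endotoxin of Gram-negative bacteria, was instilled into the nose at 5 ug per mouse each week for 16 weeks in the LPS/NNK group alone. What the NNK mice were given in place of the instillation is not stated. By the labels the mice died 1 week after their last dose; the age at death of the NNK mice and the tumour content of the samples are not given in the sources used here. Endotoxin, the instillation itself and any difference in age or in the interval since NNK therefore cannot be told apart. The labels number the samples without stating that each was a separate mouse, so the p-values measure the spread between these samples.

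Endotoxin is bound by Cd14 and Ly96 and signals through Tlr4 to NF-kB and to type I interferon. Interleukin 12 and interleukin 18 from myeloid cells drive T and natural killer cells to make interferon gamma. Promoters that answer to interferon gamma often hold a palindromic site known as GAS, and those that answer to type I interferon a repeat known as ISRE, which interferon regulatory factors bind. Among the genes under these sites are the T cell chemokines Cxcl9 and Cxcl10, the interferon-induced GTPases that attack vacuoles holding microbes, the immunoproteasome, and Ciita, the switch for MHC class II genes.

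The promoter stretches below belong to the 2 chemokines and the 3 interferon-induced GTPases with the largest rises among those in RefSeq's promoter table (build GRCm38.p6), and they are shown because these genes stand for both kinds of interferon target described here. Each gives the 250 bases before the annotated start, 5′ to 3′ on the strand of the gene. Capitals mark matches to ISRE (GAAANNGAAA, or TTTCNNTTTC when read from the other strand) and to GAS (TTCNNNGAA, the same on both strands).
Cxcl9, chr5:92328080-92328329, minus strand: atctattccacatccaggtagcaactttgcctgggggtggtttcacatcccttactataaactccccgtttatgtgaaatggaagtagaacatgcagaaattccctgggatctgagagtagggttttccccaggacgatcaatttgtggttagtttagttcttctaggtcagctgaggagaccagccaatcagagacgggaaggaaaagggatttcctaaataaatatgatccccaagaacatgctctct
Cxcl10, chr5:92348890-92349139, minus strand: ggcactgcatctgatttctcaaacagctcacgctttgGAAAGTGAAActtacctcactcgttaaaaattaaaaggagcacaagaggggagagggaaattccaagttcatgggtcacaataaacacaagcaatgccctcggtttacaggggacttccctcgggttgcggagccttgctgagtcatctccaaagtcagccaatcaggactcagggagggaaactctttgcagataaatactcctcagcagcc
Gbp2b, chr3:142594597-142594846, plus strand: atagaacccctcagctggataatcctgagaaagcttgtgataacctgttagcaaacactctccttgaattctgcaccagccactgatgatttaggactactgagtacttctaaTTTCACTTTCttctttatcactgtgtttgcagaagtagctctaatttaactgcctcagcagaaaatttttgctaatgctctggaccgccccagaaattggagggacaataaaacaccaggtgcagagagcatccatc
Gbp5, chr3:142496684-142496933, plus strand: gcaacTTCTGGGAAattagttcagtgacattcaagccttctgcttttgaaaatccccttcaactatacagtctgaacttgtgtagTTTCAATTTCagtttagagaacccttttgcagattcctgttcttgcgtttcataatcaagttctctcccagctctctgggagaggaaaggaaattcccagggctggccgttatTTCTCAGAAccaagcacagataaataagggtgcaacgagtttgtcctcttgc
Igtp, chr11:58199306-58199555, plus strand: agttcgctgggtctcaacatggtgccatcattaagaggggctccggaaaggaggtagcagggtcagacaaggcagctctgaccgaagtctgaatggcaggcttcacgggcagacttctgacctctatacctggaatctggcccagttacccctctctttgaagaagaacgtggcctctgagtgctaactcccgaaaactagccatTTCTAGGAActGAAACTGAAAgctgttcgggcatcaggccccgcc
In Igtp the GAS match begins 45 bases and the ISRE match 34 bases before the start. In Gbp5 a GAS match begins 52 bases before the start, and in Cxcl10 the ISRE match begins 213 bases before it. The stretch of Cxcl9 holds neither run of letters.

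The arrays differed in brightness, and LPS/NNK 2 stood apart within its group. The 75th percentile of the signal was 268 to 411 on the NNK arrays, 509.5 on LPS/NNK 2, 192 on LPS/NNK 3 and 183 on LPS/NNK 6, and 62.7% to 67.5%, 66.3%, 57.3% and 56.4% of spots were well above background. Across items, LPS/NNK 2 correlated at 0.971 and 0.965 with LPS/NNK 3 and 6, which correlated with each other at 0.987, against 0.981 to 0.990 among the NNK arrays and 0.942 to 0.961 between the groups. Markers of lung were measured on all 6 arrays in both groups. All 19 tested genes of alveolar type 2 cells and surfactant, all 17 of alveolar type 1 cells and 14 of 16 of the motile cilium were well above background on every array. In RNA of whole lung, fewer cells of a type and less RNA per cell cannot be told apart, here or in any result below.

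Of the 21855 items, 3773 (17.3%) passed an adjusted p of 0.05 in limma's moderated test, 1730 (7.92%) higher and 2043 (9.35%) lower with LPS/NNK, and only such items are said to have risen or fallen. Rises were the larger changes. At 4-fold or more 406 items rose and 163 fell, and at 8-fold or more 187 rose and 13 fell. The median difference over all items was -0.06 on the log2 scale. The arrays of the groups overlapped for 153 called items, and for no gene said below to have risen or fallen unless this is stated. The number of calls depended on single arrays: it was 5823 without LPS/NNK 2 (3446 of the 3773 among them). Omitting NNK 2 or NNK 3 left 1633 or 1579 calls, and omitting LPS/NNK 3 or LPS/NNK 6 left 1786 or 2024. It also depended on the background. After normexp, a correction that damps differences between dim signals, 353 items were called, of which 333 were higher and 20 lower. Rises thus made up 94.3% of calls after normexp against 45.9% before it. Normexp kept 333 of the 1730 rises and 19 of the 2043 falls as calls, and 1601 and 2042 of them kept their sign; it also moved the median of all items to -0.18. A fit that added the slide as a term called 2615 items, 2240 of them among the 3773. It left out arrays alone on their slide, PBS 2 and those of endotoxin alone, so it differed in more than the added term. Slide 6 held NNK 3 and LPS/NNK 2, and slide 7 held NNK 5 and LPS/NNK 3.

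**Figure D1:**
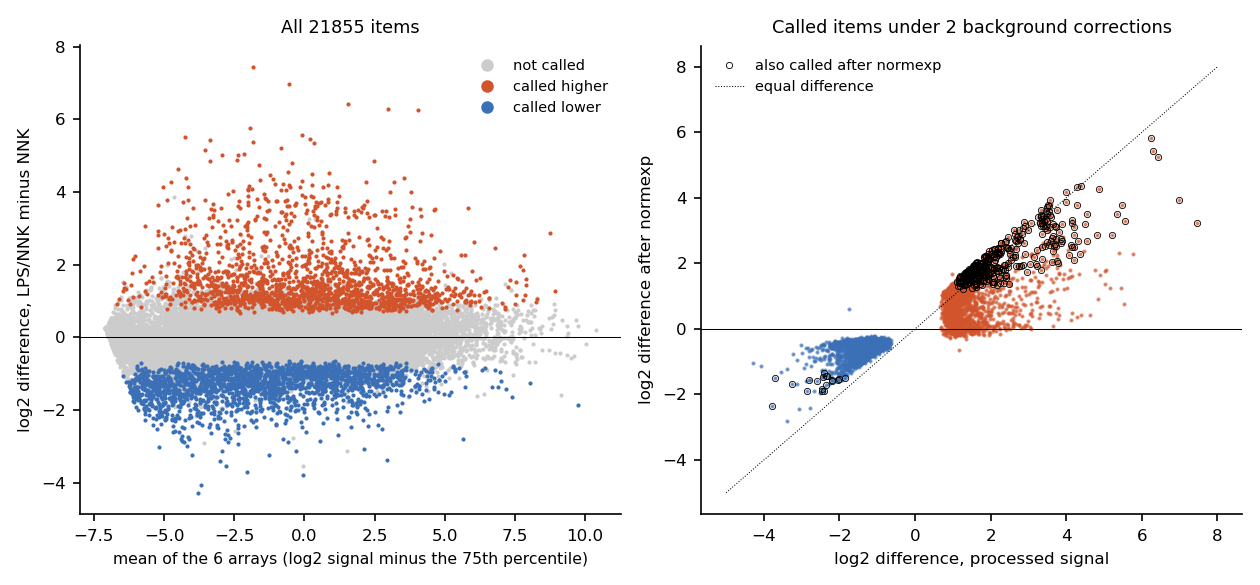
Left, each point is an item, with its mean over the 6 arrays (log2 signal minus the 75th percentile of the array) on the x axis and the log2 difference LPS/NNK minus NNK on the y axis; colours mark the 1730 items called higher and the 2043 called lower. Right, the differences of the called items with the scanner's processed signal and after normexp; ringed points were also called after normexp, 333 of them among the rises and 19 among the falls, and nearly all falls moved toward 0.

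Levels are given below as log2 of the processed signal minus the array's 75th percentile, in the order NNK 2, 3 and 5 and LPS/NNK 2, 3 and 6. Differences are log2 differences, LPS/NNK minus NNK, with the standard error (SE) from the fit, n = 3 arrays a group. Counts over gene lists stand beside the background shares above. Where some arrays of a group were not above background their number is stated, and the difference then is no measured size. A named gene kept its call whichever of the 6 arrays was left out unless this is stated.

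Interferon gamma and the chemokines and receptors of T-bet driven T cells were far higher with LPS/NNK. Ifng stood at -3.98, -3.14 and -3.18 on the NNK arrays and at 1.24, 1.82 and 2.30 on the LPS/NNK arrays. The groups were well apart, a difference of 5.22 (SE 0.43, adjusted p = 3.77e-05). Cxcl9 lay at -5.15, -2.91 and -4.12 with NNK and at 2.28, 3.33 and 3.18 with LPS/NNK, the largest rise of a named gene above background on all 6 arrays (6.99, SE 0.97, adjusted p = 0.000633). After normexp it was 3.94, below Ccl19 (4.36) and Jchain (4.19). Cxcl10 went from -2.88, -2.02 and -2.04 to 2.12, 3.67 and 3.30 (5.34, SE 1.02, adjusted p = 0.00442). Their receptor Cxcr3 rose by 2.72 (SE 0.27) and Cxcr6, which marks T cells resident in tissue, by 4.54 (SE 0.33, adjusted p = 2.83e-05). Of the receptors and subunits upstream, Il12rb1 rose by 3.16 (SE 0.33) and Ebi3, shared by interleukins 27 and 35, by 2.19 (SE 0.35). In all, 9 of 21 tested members of this list rose and none fell (median 0.87, against -0.06 over all items), and 8 of the 9 were also called after normexp. The exception was T-bet itself, Tbx21, at 0.72, 1.35 and 1.38 against 2.47, 2.51 and 2.47 (1.34, SE 0.40, adjusted p = 0.0346), whose adjusted p rose to as much as 0.138 with 1 array left out. Among the members that were not called, the difference was 0.61 for Ifngr1 and -0.15 for Ifngr2, the chains of the interferon gamma receptor, -0.56 for Il12a and 0.53 for Il18.

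**Figure D2:**
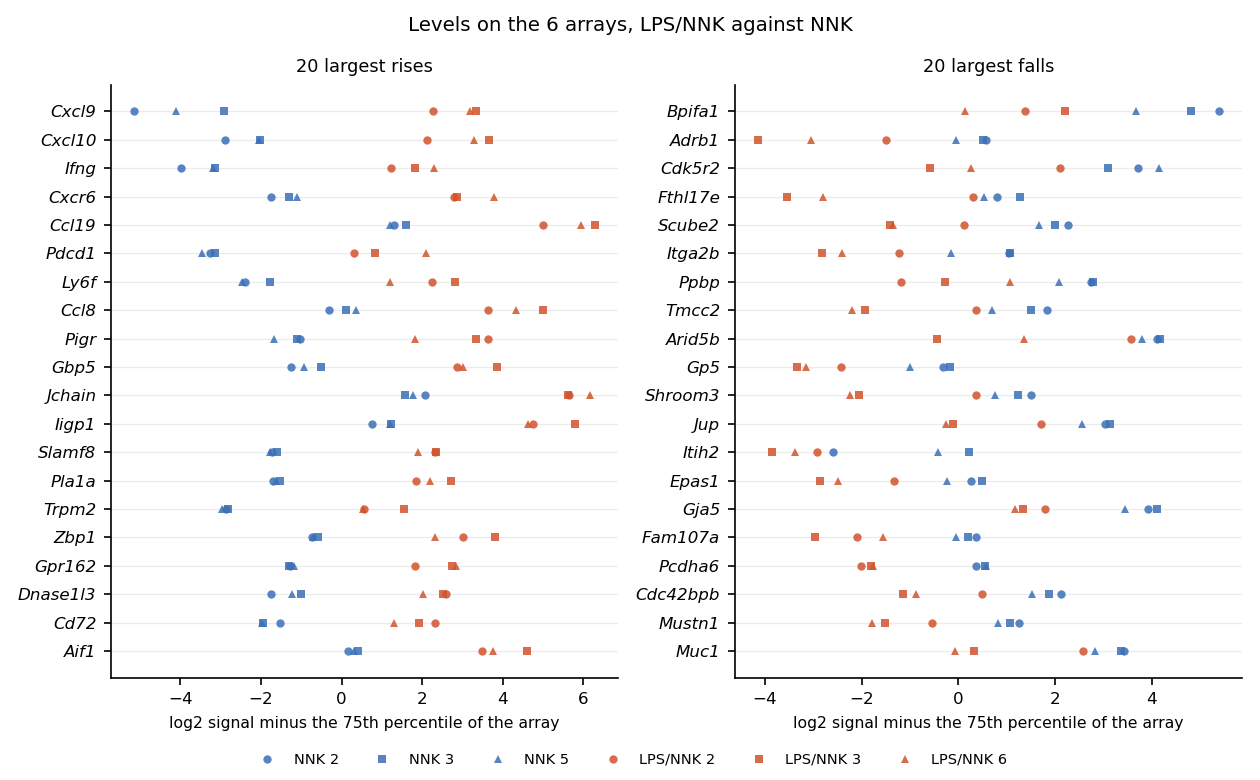
Levels of the 20 named genes with the largest rises (left) and the 20 with the largest falls (right) among genes above background on all 6 arrays; the x axis is log2 signal minus the 75th percentile of the array, each point is 1 array, blue for NNK and red for LPS/NNK. Every red point lies right of every blue point on the left and left of every blue point on the right; in several falls, such as Arid5b and Muc1, LPS/NNK 2 (red circle) lies beside the NNK arrays.

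Of 16 tested interferon-induced GTPases 14 rose and none fell, and their median difference of 2.46 was the highest of the 51 lists. Igtp stood at 2.23, 2.71 and 2.15 against 5.84, 6.43 and 5.40, and Iigp1 at 0.75, 1.23 and 1.20 against 4.74, 5.80 and 4.61, with the lowest LPS/NNK array well above the highest NNK array in each. Their differences were 3.53 (SE 0.61, adjusted p = 0.00244) and 4.00 (SE 0.56, adjusted p = 0.000649). Irgm1, an Irg protein that restrains the others, rose by 2.68 (SE 0.41), Irgm2 by 2.17 (SE 0.47) and Tgtp1, whose near-identical copy Tgtp2 the probe may share, by 3.00 (SE 0.66). Among the guanylate-binding proteins, Gbp5, which promotes inflammasome assembly, rose from -1.25, -0.52 and -0.92 to 2.87, 3.85 and 3.02 (4.14, SE 0.41, adjusted p = 0.000105), and Gbp2 rose by 2.21 (SE 0.45). Gbp2b was well above background on no NNK array and on all LPS/NNK arrays and was at least 22.7-fold higher (adjusted p = 0.000585); after normexp it was not called (1.37, adjusted p = 0.388). Such a bound takes, for each dim array, the lowest signal scored as above background there (or the probe's own, if higher) in place of the unmeasured level. Gbp4, Gbp6, Gbp7 and Gbp9 lost their calls when at least 1 array was left out (adjusted p up to 0.111 for Gbp7). After normexp, 8 of the 14 calls were kept. The 9 risen GTPase genes in the promoter table included 8 with an ISRE match (88.9%) and 5 with a GAS match (55.6%) in the 250 bases before a start. Over all 27025 genes of the table the shares were 3.46% and 8.13%, over the named genes that rose 7.5% and 8.36%, and over those that fell 2.74% and 6.74%. Gbp3, a GTPase gene that was not called (-0.24, but 3.30 and called without LPS/NNK 6), also held an ISRE match. Among risen genes with an entry, 1 of 7 of the Th1 list held ISRE and 1 GAS, 1 of 10 of MHC class I held ISRE and 2 GAS, and 1 of 6 of MHC class II held ISRE and none GAS. Shares were higher in other lists. Of the type I antiviral genes 3 of 5 held ISRE and 1 GAS. Of the STAT, SOCS and IRF genes 2 of 5 held ISRE and 3 GAS, and of the lymphoid genes 2 of 7 held ISRE and 3 GAS. No complement, B cell, cell cycle or prostaglandin gene that rose and had an entry held either match.

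Signal transducers, antiviral genes and DNA sensors rose in part. Socs1, the inhibitor that interferons induce against their own receptors, went from 1.99, 1.94 and 2.76 to 4.70, 5.37 and 4.83 (2.73, SE 0.40, adjusted p = 0.000985). Stat3 (1.22, SE 0.27), Irf1 (1.61, SE 0.26) and Irf8 (1.55, SE 0.23) also rose, though a second probe of Irf1 differed by 0.05 and one of Irf8 by 0.27. With Irf2, whose adjusted p reached 0.174 with 1 array left out, 6 of 22 tested members of this list rose and none fell (median 0.55). Jak1, Jak2, Tyk2 and Stat2 were not called (-0.27, 0.43, -0.20 and 0.78). Of the antiviral genes of type I interferon, 10 of 27 rose and none fell (median 1.05). They included Zbp1, a sensor of Z-form nucleic acids that starts necroptosis (3.72, SE 0.57, adjusted p = 0.00124), Bst2, which tethers virus particles to cells (2.11, SE 0.35), Trim30a (1.99, SE 0.30), Rtp4 (1.38, SE 0.30) and Parp14 (1.32, SE 0.29). Ifit3, Oasl2, Irf9 and Dhx58 were also called higher, with the overlap of their arrays not reported here. A second probe of Irf9 differed by -0.22. Irf7, Rsad2, Ifit1 and Isg15, of the same list, were not called, with differences of 0.02, -0.40, 0.76 and 1.22. Of the 10, only Zbp1, Bst2, Trim30a, Rtp4 and Parp14 kept their call whichever array was left out, and 5 of the 10 kept it after normexp. All 4 tested sensors of the PYHIN family rose, Ifi205 (2.41, SE 0.31), Ifi202b (2.30, SE 0.37), Ifi209 (1.53, SE 0.25) and Ifi204 (0.85, SE 0.25, with up to 2.15 at other probes); Ifi204 lost its call when any of 5 arrays was left out, with an adjusted p of up to 0.124, and Ifi205 alone was called after normexp. Ubd, a ubiquitin-like tag for the proteasome that interferon gamma and TNF induce, was above background on no NNK array. It stood at 1.88 on average with LPS/NNK, at least 111-fold higher (adjusted p = 0.000246).

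Antigen processing followed. For MHC class I, 11 of 22 tested genes rose and none fell (median 1.28), and 5 of the 11 were also called after normexp. The 3 catalytic subunits of the immunoproteasome all rose: Psmb8 from 4.76, 4.59 and 4.04 to 6.60, 7.21 and 6.39 (2.27, SE 0.36, adjusted p = 0.0016), Psmb9 by 2.39 (SE 0.37) and Psmb10 by 1.63 (SE 0.39). The constitutive subunits they replace were not called, with differences of 0.39 for Psmb5, 0.70 for Psmb6 and -0.35 for Psmb7. The activator chains Psme1 (1.36, SE 0.30) and Psme2 (1.83, SE 0.28), the trimming peptidase Erap1 (1.45, SE 0.26) and the class Ib molecule H2-M3 (2.76, SE 0.37, with 1.59 at a second probe) rose as well. Psmb10 was no longer called once LPS/NNK 3 was left out (adjusted p = 0.064), and B2m (1.09) and H2-K1 (1.29) lost theirs when any of 5 arrays was left out; 2 other probes of H2-K1 differed by 0.40 and 0.24. The peptide transporter genes Tap1 (1.42, adjusted p = 0.12) and Tap2 (1.44, adjusted p = 0.092) were not called. For MHC class II, 9 of 14 tested genes rose and none fell (median 1.31). Ciita stood at 2.37, 2.59 and 2.69 against 4.76, 4.92 and 4.08 (2.04, SE 0.47, adjusted p = 0.0116). H2-Ab1 went from 6.59, 6.73 and 6.77 to 8.77, 9.39 and 8.78 (2.28, SE 0.29, adjusted p = 0.000389). The invariant chain Cd74 (1.86, SE 0.29), the peptide editors H2-DMa (1.44, SE 0.32), H2-DMb1 (1.83, SE 0.36) and H2-Oa (2.77, SE 0.31) and the protease Ctss, which trims the invariant chain (2.46, SE 0.29), rose too, and 7 of the 9 calls were kept after normexp. H2-Aa (1.19) and Ifi30 (0.98) rose but lost their calls with single arrays left out, with adjusted p up to 0.0779 and 0.112.

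Of 24 tested complement genes 9 rose and none fell (median 0.77), and all 9 were also called after normexp. The chains of C1q, the recognition molecule of the classical pathway that macrophages make, rose: C1qa from 2.44, 2.30 and 2.25 to 5.82, 5.22 and 4.65, C1qb by 2.26 (SE 0.32) and C1qc from 2.96, 2.62 and 3.07 to 6.16, 6.70 and 6.31. For C1qa and C1qc the lowest LPS/NNK array lay more than 2 above the highest NNK array, and their differences were 2.90 (SE 0.37, adjusted p = 0.000383) and 3.50 (SE 0.30, adjusted p = 4.62e-05). The proteases C1ra (1.88, SE 0.34), C1s1 (1.65, SE 0.33) and C2 (2.87, SE 0.31; 1.70 at a second probe) and the alternative pathway's factor B, Cfb (3.54, SE 0.64), and properdin, Cfp (1.79, SE 0.29), rose with them. C3 rose by 1.44 (SE 0.35) but was not called without NNK 3, NNK 5 or LPS/NNK 3 (adjusted p up to 0.0705). The terminal components C6, C8g and Hc and the regulators Cd55, Cd59a and Serping1 were not called.

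Part of the T cell genes and most of their checkpoints rose. Of 25 tested genes of the T cell receptor complex and of T cells, 13 rose and 1 fell (median 1.23), and for checkpoints and regulatory T cells the count was 14 of 18 with none lower (median 1.90). Cd3g stood at -1.43, -1.40 and -0.95 against 1.44, 1.36 and 1.83 (2.80, SE 0.36, adjusted p = 0.000383). Cd3e, Cd247, Cd2, Cd4, Cd28 and Zap70 were not called. Thy1 rose by 2.82 (SE 0.36), Cd6 by 2.76 (SE 0.35; 1.16 at a second probe), the adaptor Lat by 2.65 (SE 0.32), Cd5 by 2.64 (SE 0.33) and the kinase Lck by 1.45 (SE 0.33). Lef1, a factor of naive T cells, fell by 1.15 (SE 0.31), a call lost with any of 4 arrays left out (adjusted p up to 0.102), and Tcf7 and Il7r were not called (-0.13 and 0.72). Pdcd1, which encodes PD-1, went from -3.27, -3.14 and -3.46 to 0.32, 0.83 and 2.11 (4.38, SE 0.62, adjusted p = 0.000731). Its ligand Cd274 (PD-L1) went from -0.29, -0.22 and -0.09 to 1.86, 2.51 and 2.01 (2.33, SE 0.31, adjusted p = 0.000459); the receptor and this ligand thus both rose without overlap. Lag3 (2.39, SE 0.34), Havcr2, which encodes TIM-3 (2.06, SE 0.31; 0.78 at a second probe), Icos (2.22, SE 0.27), Cd86 (1.87, SE 0.29) and the TNF receptors Tnfrsf18 (1.92, SE 0.34) and Tnfrsf4 (1.37, SE 0.29) rose as well. Foxp3, the factor of regulatory T cells, rose from -3.15, -3.74 and -4.33 to -1.22, -1.34 and -3.15; the lowest LPS/NNK array lay beside the highest NNK array, and 1 NNK array was not above background (1.84, SE 0.44, adjusted p = 0.0142), and the call was lost without NNK 5 or LPS/NNK 3 (adjusted p up to 0.0654). Ido1 rose by 2.42 (SE 0.65) and lost its call with any of 4 arrays left out (adjusted p up to 0.0907). The second probe of Havcr2 was above background on no NNK array and on 1 LPS/NNK array. After normexp 8 of the 13 T cell calls and 5 of the 14 checkpoint calls were kept, the latter Pdcd1, Cd274, Lag3, Havcr2 and Tnfrsf18. The summed signal of the T cell list lay between 4.91 and 5.17 on the NNK arrays and between 7.03 and 7.79 on the LPS/NNK arrays (log2), with 1 member above background on none of the 6.

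Genes of killing were mixed. Of 16 tested genes of cytotoxic and natural killer cells 6 rose and none fell (median 0.32): Il2rb (2.51, SE 0.30), Ctsw (2.15, SE 0.36), Nkg7 (1.86, SE 0.34), Cst7 (3.05, SE 0.40), the chemokine Xcl1 and Eomes (1.02, SE 0.32), whose call was lost with any array left out (adjusted p up to 0.161). Xcl1, above background on no NNK array, stood at -3.80, -3.44 and -0.39 with LPS/NNK, the last far above the others. It was at least 5.07-fold higher, at least 2.4-fold without LPS/NNK 6, and not called after normexp (0.48, adjusted p = 0.842). The granule proteins Gzma, Gzmb and Prf1 were not called, at 0.16, 0.24 and -0.41, nor were the natural killer receptors Ncr1 (-1.34, adjusted p = 0.11), Klrb1c (-0.62) and Klrd1 (0.40).

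Part of the B cell, plasma cell and lymphoid genes rose, and after normexp 3 of 7, 3 of 6 and 5 of 10 of their calls were kept. Jchain, which links antibody into polymers, went from 2.08, 1.59 and 1.76 to 5.64, 5.63 and 6.17 (4.00, SE 0.48, adjusted p = 0.00027), and its transporter across epithelium, Pigr, from -1.04, -1.09 and -1.69 to 3.64, 3.33 and 1.81 (4.20, SE 0.58, adjusted p = 0.000633). In each the lowest LPS/NNK array lay well above the highest NNK array. Of 12 tested plasma cell genes 6 rose, none fell (median 1.03) and all 6 kept their call whichever array was left out; they included Derl3 (3.21, SE 0.25) and Mzb1 (2.47, SE 0.31), which serve antibody secretion, and Tnfrsf17 (1.72, SE 0.37). Prdm1 and Xbp1, the factors of the plasma cell programme, were not called (0.19 and -0.50). Of 20 tested B cell genes 7 rose and none fell (median 0.82), with Cd72 (3.67, SE 0.52), Tnfrsf13c (2.0, SE 0.30), Pou2af1 (1.95, SE 0.27) and Blnk (1.93, SE 0.28) kept whichever array was left out, and Cd79a not called (0.58). Among 23 tested genes of lymphoid tissue and homing 10 rose and none fell (median 0.78). Ccl19, which guides T and dendritic cells into T cell zones, went from 1.29, 1.61 and 1.21 to 5.00, 6.29 and 5.95 (4.38, SE 0.41, adjusted p = 8.46e-05), and Cxcl13, which guides B cells into follicles, from -2.67, -2.26 and -2.13 to 0.08, 1.13 and 1.91 (3.39, SE 0.67, adjusted p = 0.00502). The lymphotoxins Ltb (3.34, SE 0.32) and Lta (2.49, SE 0.28), which induce lymphoid stroma, the B cell factor Tnfsf13b (1.28, SE 0.23) and the adhesion molecule Vcam1 (1.76, SE 0.27) rose with them. Ccr7 (0.14), Cxcr5 (0.43) and Ltbr (0.69), receptors of Ccl19, Cxcl13 and lymphotoxin, were not called. Beyond the named genes, 45 unnamed transcripts above background on all 6 arrays rose by 3.65 to 6.42, at least as much as the 20th named gene.

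Monocyte and macrophage genes split. Of 23 tested genes of monocytes and recruited macrophages 17 rose and none fell (median 1.77), 15 of them whichever array was left out and 12 after normexp. Fcgr1, the high-affinity Fc receptor, stood at 0.13, 0.30 and 0.48 against 3.32, 4.24 and 3.69 (3.45, SE 0.35, adjusted p = 0.000105), and Ms4a7 at -1.06, -1.78 and -1.39 against 1.80, 2.51 and 2.27 (3.61, SE 0.39, adjusted p = 0.00014). Aif1 (3.65, SE 0.45), Ccr2, the receptor that brings monocytes out of the marrow (2.49, SE 0.26), Adgre1, which encodes F4/80 (2.40, SE 0.31), Cx3cr1 (2.22, SE 0.30; 0.77 at a second probe), Apoe (1.96, SE 0.33) and Fcgr4 (1.92, SE 0.36) also rose. Maf rose by 1.77 (SE 0.34), while a second probe of it differed by -0.10. Csf1r, Cd14 and Lyz2 were not called (0.42, 0.63 and 0.31). Cd5l, a macrophage product, was at least 6.59-fold higher, and after normexp its difference was 0.45 (adjusted p = 0.842). Slamf8 (3.89, SE 0.39), a receptor of activated macrophages, was among the 20 largest rises with Trpm2, Pla1a, Dnase1l3 and Gpr162 (3.70 to 3.87).

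Against this, several genes of tissue macrophages and of alternative activation fell. Cd163, the receptor that clears haemoglobin, stood at -2.67, -2.94 and -2.48 with NNK, and it was above background on none of the LPS/NNK arrays (at least 3.92-fold lower, adjusted p = 0.00815). Cd209b, a lectin receptor, went from -2.11, -1.62 and -1.23 to -7.77, -5.68 and -3.69, with 1 of 3 LPS/NNK arrays above background (adjusted p = 0.00437). Cd209d (2 LPS/NNK arrays above background) fell by 1.69 (SE 0.35), Cd209a (no LPS/NNK array and 2 NNK arrays) by 1.44 (SE 0.34) and the folate receptor Folr2 by 1.52 (SE 0.40); the last pair lost their calls with single arrays left out (adjusted p up to 0.0636 and 0.0825). Yet 7 other members of this list of 19 tested lectins and scavenger receptors rose, among them Clec10a from 2.52, 2.50 and 2.21 to 4.61, 4.93 and 4.88 (2.40, SE 0.29, adjusted p = 0.000325), Clec4a3 (1.65, SE 0.29) and Clec4a2 (1.33, SE 0.27). Another probe of Clec4a2 differed by 0.64, and a further one was above background on no array of either group. Marco, Mrc1, Msr1 and Timd4 rose by 0.89 to 2.34 but each lost its call with at least 1 array left out (adjusted p up to 0.158). The list's median was 0.23. Of 17 tested genes of type 2 immunity none rose and 3 fell (median -0.35). Ccl24, the eosinophil chemokine eotaxin-2, stood at -2.29, -2.44 and -2.43 against -5.0, -6.56 and -5.32 (adjusted p = 0.000345), with 1 of 3 LPS/NNK arrays above background and no overlap. Retnla, a marker of alternative activation, stood at 3.58, 2.99 and 3.54 against 0.43, 2.30 and 1.07 (-2.10, SE 0.61, adjusted p = 0.0331), and its adjusted p reached 0.106 with 1 array left out. Arg1, at least 2.01-fold lower (adjusted p = 0.0439), had overlapping arrays and lost its call in 5 of the 6 fits with 1 array left out. None of the 8 falls in these lists was called after normexp. Il4, Il13, Il33 and Ccl11 were not called, with differences from -0.37 to 0.25. Of 16 tested genes of alveolar macrophages 4 rose and none fell (median 0.42), and none of the 4 was called after normexp. Plet1 alone (1.32, SE 0.29, with 0.5 at a second probe) kept its call whichever array was left out. The other rises were Chil3, Pparg and Olr1, with the overlap of their arrays not reported here. Siglecf (-0.07), Car4 (-0.16) and Fabp4 (-0.32) were not called. Of 16 tested genes of lipid-handling macrophages 3 rose and 1 fell (median 0.25), and none of these calls was kept after normexp. Cd36, a fatty acid transporter of macrophages and endothelium, fell by 1.32 (SE 0.25), and Cd5l, given above, rose. Trem2 (1.4, with 0.94 at a second probe) and Ctsb (1.16, with -1.0 at a second probe) also rose, with the overlap of their arrays not reported here. Both lost their calls with at least 1 array left out. Gpnmb, Spp1 and Lpl were not called.

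**Figure D3:**
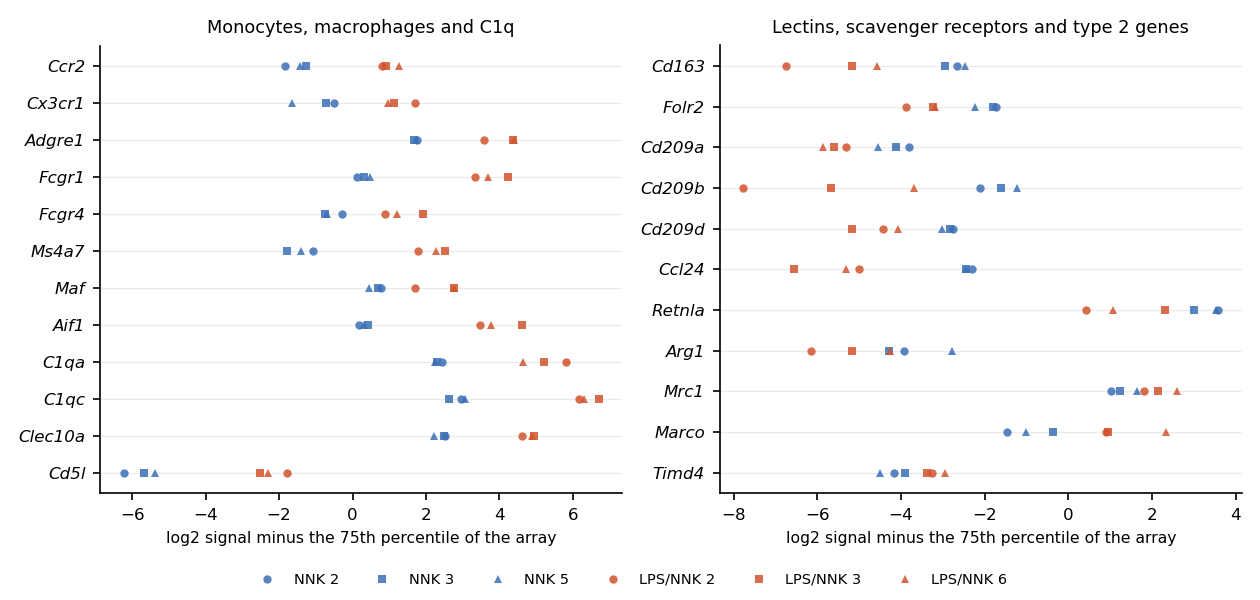
Levels on each array of genes of monocytes, macrophages and C1q (left) and of lectins, scavenger receptors and type 2 genes (right); the x axis is log2 signal minus the 75th percentile of the array, blue points are NNK and red points LPS/NNK arrays. All genes on the left were higher on every LPS/NNK array, while on the right Cd163, Folr2, the Cd209 genes, Ccl24 and Retnla were lower and Arg1 overlapped, and Mrc1, Marco and Timd4 were higher.

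Other leukocytes and mediators were called in part. Of 13 dendritic cell genes 5 rose and none fell (median 0.85), among them Batf3, the factor of cross-presenting dendritic cells (1.98, SE 0.30), Itgae (1.94), Mycl (1.76, SE 0.29) and Naaa (1.60, SE 0.22). Of 18 neutrophil genes 2 rose and 1 fell (median 0.22): Il1r2 rose by 2.25 (SE 0.49) and Camp by 1.75 (SE 0.46, adjusted p up to 0.0862 with 1 array left out), both above background on all LPS/NNK arrays but on 1 and 2 NNK arrays, and Retnlg fell by 1.29 (SE 0.28). After normexp the difference of Il1r2 was -0.01. S100a8, S100a9, Mpo and Csf3r were not called (-0.85, -0.53, 0.68 and 0.95). No mast cell gene was called of 8 tested in limma's fit (median -0.56, lowest adjusted p = 0.125), and 1 had an unadjusted p under 0.05. Of the neutrophil chemokines and the interleukin 17 axis 6 of 12 rose and 1 fell (median 1.14). Il17a, above background on no NNK array, stood at -2.76, -1.71 and -3.36 with LPS/NNK, at least 4.95-fold higher (adjusted p = 0.000328), and Ccl20, the chemokine for Ccr6-bearing T cells, rose by 3.51 (SE 0.63), with 1 NNK array above background. Cxcl1 (2.76, SE 0.86) and Cxcl5 (3.78, SE 0.96; 1 NNK array above background) rose but lost their calls with single arrays left out (adjusted p up to 0.136 and 0.0775). None of the 7 was called after normexp. Ccl8, a monocyte and T cell chemokine, went from -0.31, 0.11 and 0.35 to 3.65, 5.01 and 4.34 (4.28, SE 0.53, adjusted p = 0.000345). Of 15 tested genes of the CC chemokine list 2 rose and none fell (median 0.44). The other rise was Ccl4, which lost its call with at least 1 array left out and after normexp. Its levels and the overlap of its arrays are not reported here. Ccl2, Ccl3, Ccl7 and Ccl12 differed by 1.22 to 1.58 and were not called. Tnf stood at -3.34, -3.68 and -3.77 against -0.75, -1.55 and 0.87 (3.12, SE 0.67, adjusted p = 0.00808), without overlap but with a wide spread among the LPS/NNK arrays, and it was not called after normexp (1.14, adjusted p = 0.465). In the interleukin 1 family Il18bp, the interferon-induced trap of interleukin 18 (2.66, SE 0.42), Casp1 (1.94, SE 0.28) and Casp4, which senses endotoxin in the cytosol (1.78, SE 0.41; adjusted p = 0.0517 at most with 1 array left out), rose, and Il1b was not called (1.05, adjusted p = 0.25). The endotoxin receptor Tlr4 (0.81), its partner Cd14 and the adaptor Myd88 (0.23) were not called either, whereas Ly96, which also binds endotoxin, was called higher. Of 24 tested genes of Toll-like receptors and NF-kB 7 rose and none fell (median 0.62), and 1 of the 7 was called after normexp. Tlr1 (1.79, SE 0.30), Tlr6 (1.36, SE 0.27) and the NF-kB inhibitors Nfkbie (1.85, SE 0.33) and Nfkbiz (2.08, SE 0.31) kept their call whichever array was left out. The other rises, Ly96, Tlr2 and Nfkbib, each lost their call with at least 1 array left out. Their levels and the overlap of their arrays are not reported here. Of 22 prostaglandin and leukotriene genes 8 rose and 1 fell (median 0.54). They included Hpgds (2.59, SE 0.35; 1 NNK array above background), Cysltr2 (1.51, SE 0.25), Tbxas1 (1.39, SE 0.30) and Alox5ap (1.16, SE 0.23), while Hpgd, which inactivates prostaglandins, fell by 1.39 (SE 0.30).

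Proliferation genes rose in part. Of 43 tested cell cycle genes 21 rose and none fell (median 1.06), and 40 of the 43 differences were above 0. Birc5, a survivin needed for division, stood at -0.28, -0.62 and 0.06 against 1.35, 2.48 and 2.34 (2.34, SE 0.47, adjusted p = 0.00537), Aurka at -0.08, -0.54 and 0.18 against 1.04, 2.20 and 1.77 (1.81, SE 0.35, adjusted p = 0.00474), and Ccnb2 at 0.35, 0.10 and 0.79 against 1.65, 2.77 and 2.46 (1.88, SE 0.39, adjusted p = 0.00672). In each the groups did not overlap and LPS/NNK 2 was the lowest of its group. These 3 were the cell cycle genes also called after normexp. Ccnb1 (1.98, SE 0.41; 1 NNK array above background), Cenpe (1.96, SE 0.43; down to 0.04 at other probes), Tk1 (1.79, SE 0.36) and Ccne1 (1.65, SE 0.34; 0.50 at a second probe) also kept their call whichever array was left out, and the other 14 did not. The Cenpe probe at 0.04 was above background on 1 array of each group. Without LPS/NNK 2, 25 of the 43 rose. Among the genes not called were Cdk1 (0.61), Foxm1 (0.25) and Pcna (0.58). Of 22 tested genes of DNA repair and 22 targets of p53, 1 rose and 1 fell in each list (medians 0.46 and 0.10). The gap to the share among all items was not tested, and 9 and 7 genes had an unadjusted p under 0.05 in limma's fit. Without LPS/NNK 2, 4 DNA repair genes rose, and 3 targets of p53 did. Perp, a p53 target of epithelial junctions, fell from 2.06, 2.17 and 2.17 to 0.50, 0.80 and 0.99 (-1.37, SE 0.24, adjusted p = 0.0025), and Cdkn1a and Mdm2 were not called (0.14 and -0.16).

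**Figure D4:**
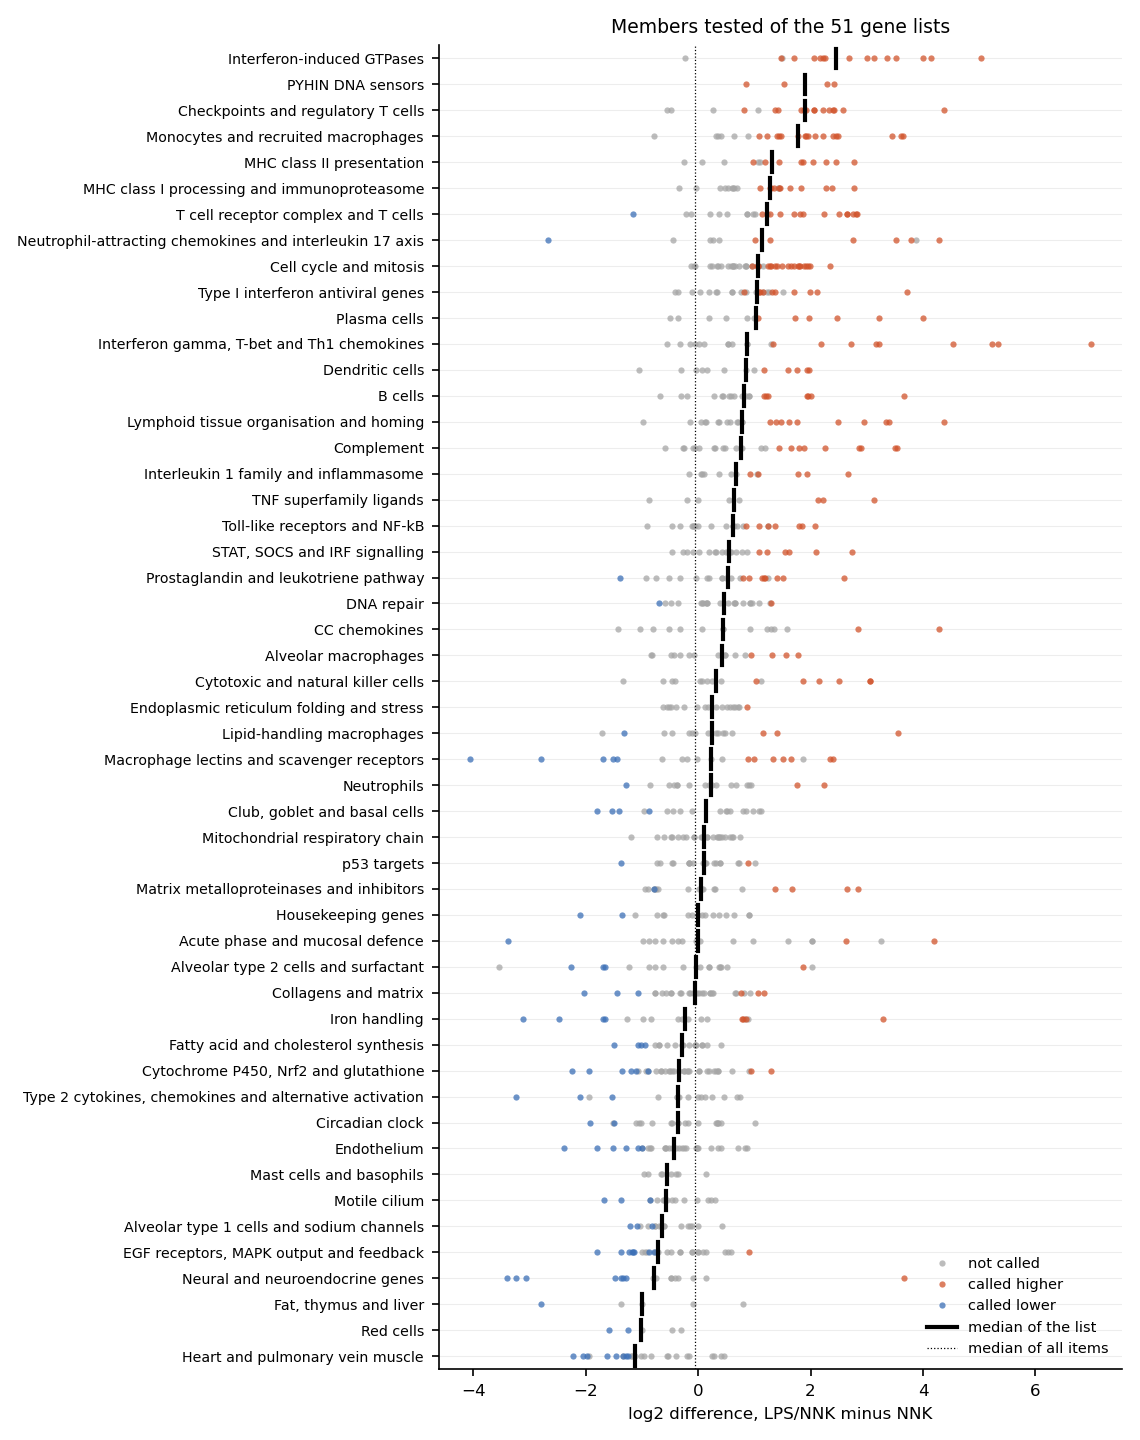
Log2 differences, LPS/NNK minus NNK, of the tested members of the 51 gene lists (x axis), ordered by the list's median (black bar); red points were called higher, blue points lower, grey points not called, and the dotted line is the median of all items. The lists of interferon-induced GTPases, PYHIN sensors, checkpoints, and monocytes and recruited macrophages lie at the top, and the muscle, red cell, fat, thymus and liver, and neural lists at the bottom.

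The falls were spread over many kinds of genes. Adrb1, a beta-adrenergic receptor, stood at 0.58, 0.50 and -0.04 against -1.50, -4.14 and -3.05 (-3.24, SE 0.49, adjusted p = 0.00119), and Scube2 fell by 2.86 (SE 0.44). Bpifa1, an antimicrobial protein of the airway lining, stood at 5.39, 4.82 and 3.67 against 1.38, 2.20 and 0.14 (-3.38, SE 1.05, adjusted p = 0.041), the largest fall among named genes above background on all 6 arrays, and its adjusted p reached 0.141 with 1 array left out. From the 20 largest falls 3 genes of platelets and megakaryocytes were singled out after their values were seen. Itga2b, the alpha chain of the fibrinogen receptor, fell by 2.81 (SE 0.43, adjusted p = 0.0012), the chemokine precursor Ppbp from 2.74, 2.78 and 2.08 to -1.19, -0.27 and 1.06 (-2.67, SE 0.57, adjusted p = 0.00791) and the receptor chain Gp5 by 2.47 (SE 0.31, adjusted p = 0.00036). Pf4, another platelet gene, was not called (-0.79, adjusted p = 0.18). In Arid5b LPS/NNK 2 lay at 3.58 beside NNK levels of 4.11, 4.17 and 3.79, with LPS/NNK 3 and 6 at -0.44 and 1.36. Its call was lost in 5 of the 6 fits with 1 array left out, and its 3 other probes differed by 0.06, -0.88 and -0.50. A second probe of Pcdha6 (-2.35) differed by 0.01. A further 9 unnamed transcripts fell at least as much as the 20th named gene. Of these genes Adrb1, Scube2, Itga2b and Pcdha6 were also called after normexp.

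In the vessel wall 6 of 30 tested endothelial genes fell and none rose (median -0.43). Gja5, the gap junction protein of arterial endothelium, stood at 3.92, 4.11 and 3.44 against 1.79, 1.33 and 1.16 (-2.40, SE 0.35, adjusted p = 0.000934), with -0.66 at a second probe. Dll4, a Notch ligand of arteries and sprouts, fell by 1.80 (SE 0.32) and Nos3 by 1.51 (SE 0.32). Epas1, the hypoxia factor HIF-2 alpha that endothelium and type 2 cells express, fell from 0.26, 0.48 and -0.23 to -1.34, -2.85 and -2.49 (-2.40, SE 0.37, adjusted p = 0.00121). The pan-endothelial markers Pecam1, Cdh5 and Cldn5 were not called (0.35, -0.46 and -0.34), though a second probe of Cdh5 differed by -1.48. The basement membrane chains Col4a1 (-1.07, SE 0.27) and Col4a2 (-1.44, SE 0.35) and fibronectin, Fn1, from 3.64, 3.52 and 3.41 to 2.02, 1.54 and 0.88 (-2.04, SE 0.30, adjusted p = 0.00101), fell, and Col3a1 rose by 1.18 (SE 0.34). Of these 4, Fn1 alone kept its call whichever array was left out, and 3 of 31 matrix genes rose and 3 fell (median -0.05). Among the matrix-cleaving enzymes Mmp14 rose from 2.83, 2.27 and 3.29 to 5.29, 5.68 and 5.35 (2.64, SE 0.31, adjusted p = 0.000242; 1.09 at a second probe) and Mmp25 by 2.85 (SE 0.43), and 4 of 18 rose and 1 fell (median 0.05). After normexp Gja5, Fn1, Mmp14 and Col3a1 kept their calls among the genes of these 3 lists.

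Epithelial lists showed scattered falls, none of which was called after normexp. Without LPS/NNK 2, 6 genes fell in the type 2 list and 6 in the type 1 list. Sftpb, a surfactant protein, stood at 4.66, 5.38 and 5.81 against 4.15, 3.20 and 3.43 (-1.69, SE 0.33, adjusted p = 0.00517), whereas Sftpc, Sftpa1 and Sftpd were not called (0.20, 0.41 and 0.39). Of the 19 type 2 cell genes 3 fell and 1 rose, the invariant chain Cd74 given above (median -0.04). Of 17 genes of alveolar type 1 cells and sodium channels 3 fell and none rose (median -0.65), and Scnn1g (-1.21, SE 0.23) kept its call whichever array was left out. Scgb1a1, the club cell secretoglobin, stood at 7.97, 7.88 and 7.80 against 5.68, 6.85 and 6.86 (-1.41, SE 0.29, adjusted p = 0.0069), with 4 of 18 airway genes lower and none higher (median 0.14). The summed signal of that list lay between 9.22 and 9.58 on the NNK arrays and between 8.33 and 9.16 on the LPS/NNK arrays. Of 16 genes of the motile cilium 3 fell, among them the dynein Dnah5 (-1.37, SE 0.27) and Hydin (-1.68, SE 0.36), and none rose (median -0.57); Foxj1, the master factor of ciliated cells, was not called (0.23). Slpi, a protease inhibitor of mucus, rose from 4.49, 4.72 and 4.98 to 6.48, 8.32 and 7.26 (2.62, SE 0.47, adjusted p = 0.00304), but a second probe of it differed by 0.20. Saa3 (3.25, adjusted p = 0.15), Lcn2 (1.60, adjusted p = 0.22) and Chil1 (2.02, adjusted p = 0.052) were not called. Of 35 genes of xenobiotic and oxidant defence 6 fell and 2 rose (median -0.34): Cyp2d22 (-2.24, SE 0.44) fell and Keap1, the inhibitor of Nrf2, rose (1.30, SE 0.22), each whichever array was left out. Cyp2a5, whose product activates NNK, was not called (-0.52, adjusted p = 0.43), nor were Nqo1, Gclc and Gclm.

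Growth signals were lower in part, and clock genes fell at near the share of all items. Of 29 genes of EGF receptors and MAPK output 8 fell and 1 rose (median -0.71). Fos went from 0.98, 0.87 and 1.70 to -0.06, 0.08 and -0.18 (-1.24, SE 0.33, adjusted p = 0.0217), and Dusp1 fell by 1.79 (SE 0.44) and Egr1 by 1.13 (SE 0.34). None of the 9 calls survived every fit with 1 array left out (adjusted p up to 0.0762 for Fos, 0.0667 for Dusp1 and 0.112 for Egr1) or normexp. Egfr was not called (0.00). Of 20 clock genes Per1 (-1.93, SE 0.45; adjusted p up to 0.0544) and Cry2 (-1.49, SE 0.26) fell and none rose (median -0.36), with Nr1d1 at -1.51 and an adjusted p of 0.051. The falls of clock genes were thus near the 9.35% share of all items, and neither Per1 nor Cry2 was called after normexp. In iron handling 4 of 18 fell and 4 rose (median -0.24). Hamp, the iron hormone hepcidin, stood at -0.90, -1.11 and -2.13 against -4.43, -3.59 and -5.49 (-3.12, SE 0.57, adjusted p = 0.0033), and its inducer Bmp6 (-1.70, SE 0.40; adjusted p up to 0.0589) and the co-receptor Hjv fell with it; Hjv was above background on 1 LPS/NNK array and Hamp on 2. Among 16 neural and neuroendocrine genes 7 fell and 1 rose (median -0.78), among them Npy (adjusted p = 0.0014, above background on 1 LPS/NNK array) and Calca (-1.34, SE 0.29). Scd1 (-1.50, SE 0.31) was the largest of 4 falls among 20 lipid synthesis genes (median -0.29).

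Genes of cardiac muscle, which in mice sheathes the pulmonary veins and can also reach a sample with the heart, fell in 8 of 25 cases and rose in none, and their median of -1.12 was the lowest of the 51 lists. Myl4 stood at 5.06, 4.54 and 3.68 against 2.52, 3.00 and 1.61 (-2.04, SE 0.42, adjusted p = 0.00613). The summed signal of the list overlapped between the groups, from 7.92 to 8.66 on the NNK arrays and from 7.48 to 8.43 on the LPS/NNK arrays, with no member below background on all 6. Against the NNK mean the list's median was -1.24 on LPS/NNK 2, -0.35 on LPS/NNK 3 and -1.46 on LPS/NNK 6, and it was -1.30 within slide 6 and 0.00 within slide 7. Only Myl4 and Ckm (-1.98, SE 0.40) kept their calls whichever array was left out, and none of the 8 was called after normexp. The red cell gene Alas2 fell from 6.37, 6.19 and 5.25 to 4.03, 4.11 and 4.91 (-1.58, SE 0.34, adjusted p = 0.00765), with Hba-a1 not called (-0.47); the summed red cell signal was 9.55 to 9.86 on the NNK arrays and 8.35 to 9.75 on the LPS/NNK arrays. The liver gene Alb was at least 3.2-fold lower, at least 6.34-fold without NNK 2 and 2.05-fold without NNK 3. The part of blood, heart or other tissue cut with the lung in these differences was not tested.

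**Figure D5:**
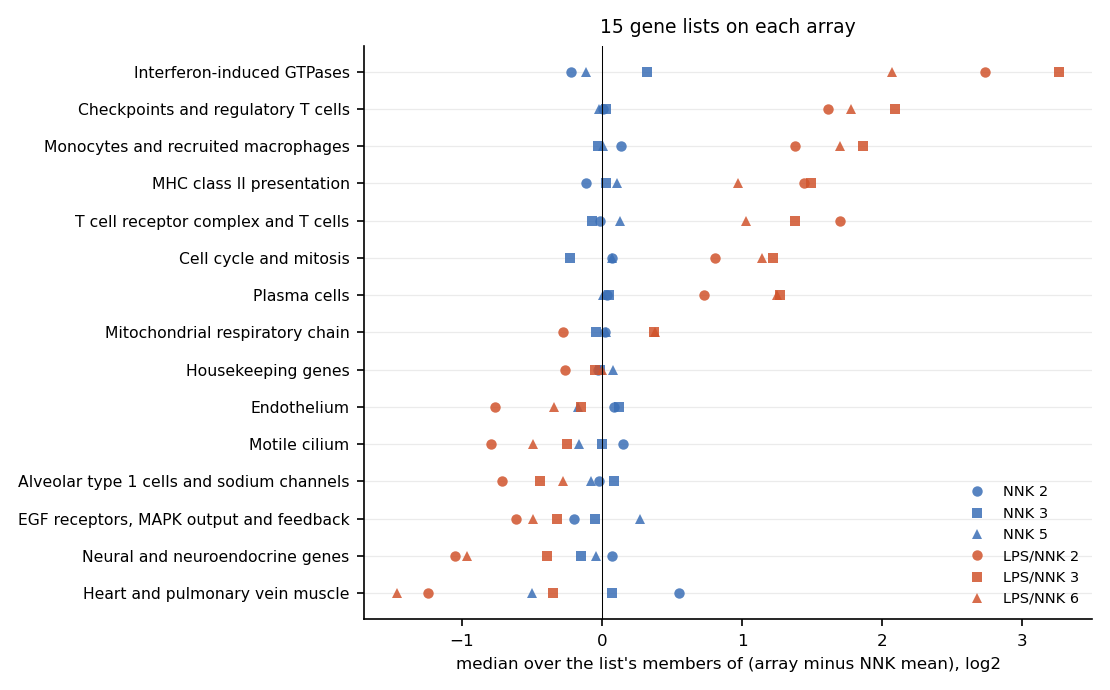
For 15 gene lists, the median over members of each array's level minus the mean of the NNK arrays (log2, x axis); blue points are NNK and red points LPS/NNK arrays. The immune and cell cycle lists lie above 0 on all 3 LPS/NNK arrays, while the muscle list spreads from -1.46 to -0.35 on the LPS/NNK arrays and from array to array within NNK.

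Few genes of basic cell functions were called. None of 26 tested subunits of the respiratory chain was called in limma's test (median 0.11), and 3 had an unadjusted p under 0.05; their differences lay between -1.20 and 0.74, and 4 rose and 3 fell without LPS/NNK 2. Of 18 genes of folding in the endoplasmic reticulum Manf alone rose (0.86, SE 0.21; adjusted p up to 0.0686 with 1 array left out); the median was 0.25, and 8 had an unadjusted p under 0.05. Without LPS/NNK 2, 2 of them rose. Of 17 housekeeping genes 2 fell and none rose (median -0.01, differences from -2.11 to 0.91), though 8 had an unadjusted p under 0.05 and, without LPS/NNK 2, 3 rose and 5 fell. The 2 were Ppia, from 3.04, 2.86 and 2.92 to 1.23, 0.56 and 0.69 (-2.11, SE 0.32, adjusted p = 0.00113), and Actg1 (-1.36, SE 0.35), whose call was lost with any of 4 arrays left out (adjusted p up to 0.0834). Neither was called after normexp. Gapdh, Actb, Hprt and Tbp were not called (-0.62, -0.60, 0.63 and 0.07).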

How the data were processed

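RNA of whole lung, extracted with TRIzol per the labels, was measured on 12 1-colour Agilent arrays (design 14868), of which 6 entered the comparison. The authors scanned the arrays and read them with Agilent Feature Extraction (10.7.3.1 per the file headers, 10.7 in the submitters' processing notes, which also name Partek). The deposited intensity of each spot (processed signal) is background-corrected on a linear scale. The deposited log2 table of the authors equals log2 of that signal minus the 75th percentile of the array, to within a spread of 8.87e-05.

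From the deposited intensities, log2 processed signal minus the array's 75th percentile was computed, with no pseudocount. Control and outlier spots were left out, spots of a probe were averaged, and 37 of 41174 probes were lost as outliers. A probe was kept where 1 or more of the 4 groups had it above background on all its arrays. A gene was tested where it had a kept probe, and was represented by the kept probe with the highest mean over 12 arrays. Gene symbols were held by 59.2% of probes; families of near-identical copies (Gbp, Cd209, H2, Tgtp, Ms4a) may share probe signal. limma 3.58.1 (R 4.3.3) fitted 1 mean per group on all 12 arrays with eBayes (8 residual degrees of freedom, 5.5 prior), with Benjamini-Hochberg adjustment over 21855 items at 0.05, 2-sided. With 3 arrays against 3, an exact permutation test cannot go below p = 0.1, so none was used. The code was tested on simulated data. The number of arrays limits the precision.

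Genes are named from the 20 largest rises and falls among genes above background on all 6 arrays without overlap, the 8 highest bounds in each direction, and 51 gene lists. Some list members are counted but not reported by name here. Members and lists were chosen with earlier results of these data known. Alternatives covered background correction, normalization, filters, arrays fitted, array weights, slide, replicate number, probe summary, the deposited table and each array left out. Normexp (offset 50) used the median signal and median background columns. Slide 6 and slide 7 each held 1 array of both groups.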

Additional observations from a re-analysis of the deposited data

How the results depend on the processing

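Against 3773 called items, normexp gave 353 and array weights gave 13556; the other alternatives that kept all 6 arrays gave 2521 to 4903. Leaving out 1 array gave 1579 to 5823 calls. The causes of these differences were not tested. Only replicate numbers 2 and 3 are shared between the groups, and the arrays with the same number deviated together at a correlation of 0.257 for number 2 and -0.10 for number 3, so the numbers were not taken to pair the samples. With the replicate block, 3701 items were called, 3010 of them among the 3773. Of 6273 values of 300 named genes under the alternatives, 5825 stayed on their side of the threshold, with the same direction where they were called. Changes of sign in genes called in neither fit are counted among these. A further 341 were no longer called, 103 became called and 4 changed sign with a call in 1 or both fits. Those 4 were Il1r2 (-0.01) and Timd4 (-0.14) after normexp, Spp1 (0.65) with array weights and the uncalled Gbp3, whose difference ran from -2.27 to 3.30 with 1 array left out. Normexp accounted for 103 of the changes. LPS/NNK 3 and 6 had the fewest spots above background of the 6 arrays.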
